A study of Mus musculus with 8 samples.

Results

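The genes described here are 10 receptors and surface enzymes of extracellular nucleotide signalling in macrophages, chosen by their symbols from a table of 54532 mouse genes. They are the ATP-gated channels P2rx4 and P2rx7, the nucleotide receptors P2ry2, P2ry6, P2ry13 and P2ry14, the adenosine receptors Adora2a and Adora2b, and the ectonucleotidases Entpd1 and Nt5e. All 10 were found in the table, and 9 of them were among the 12234 genes with enough reads to be tested. Nt5e was not.

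RNA was sequenced from mouse bone marrow-derived macrophages (BMDMs), primary macrophages grown from bone marrow. In the group called IL-4 then LPS, cells received 20 ng/ml interleukin 4 (IL-4), a cytokine that T helper cells make in allergy and worm infection, for 24 h, were washed, and then met lipopolysaccharide (LPS), the bacterial ligand of Tlr4, at 100 ng/ml for 4 h. The IL-4 group received 20 ng/ml IL-4 for 24 h with no LPS, the LPS group 100 ng/ml LPS for 4 h with no IL-4, and the control group neither agent. Each group held 2 libraries, replicates 1 and 3 in the labels. Mouse strain, age, the number of animals per library and any wash of the IL-4 group are not given in the sources used here. The series title presents IL-4 as an inducer of trained immunity, so the comparisons ask what LPS does to these genes, what IL-4 does, and whether prior IL-4 alters the response to LPS.

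Cells that are damaged or activated release ATP and UTP, which act on P2X channels and P2Y receptors of neighbouring cells and of the releasing cell. Entpd1 (CD39) on the cell surface strips ATP and ADP to AMP, and Nt5e (CD73) turns AMP into adenosine. Adenosine then acts on G protein-coupled receptors, of which the products of Adora2a and Adora2b raise cyclic AMP and are known for restraining inflammatory output of macrophages.

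Libraries held 7924932 to 9431852 counts. All 8 macrophage markers checked (among them Adgre1, Csf1r and Lyz2) were measured, with summed levels of 12800 to 18000 CPM (read counts scaled to library size by TMM) in IL-4 then LPS, 12300 to 17200 in IL-4, 20700 to 23100 in LPS and 18200 to 24900 in control libraries. Lyz2 made up most of this sum in every library, and the markers did not move together. Csf1r had 12362 and 13481 reads in LPS, against 27263 and 29815 in control. Cd14 had 16916 and 16424 against 5483 and 3569, and Fcgr1 2654 and 2097 against 838 and 702. Of 7 T, B and NK cell markers, 6 had no read. Summed markers of stromal cells (4 of 6 tested) and dendritic cells (3 of 6 tested) were higher in both groups that received LPS. These summed levels were 27.0 to 46.2 and 8.95 to 13.7 CPM in IL-4 then LPS, 4.46 to 5.17 and 1.27 to 2.05 in IL-4, 20.6 to 46.8 and 6.49 to 11.9 in LPS, and 4.06 to 4.59 and 0.692 to 1.13 in control. The stromal sum was carried by Pdgfrb (116 and 290 reads in IL-4 then LPS, 5 and 11 in IL-4, 100 and 299 in LPS, 11 and 9 in control), while Col1a2 had 16 and 12, 22 and 17, 10 and 8, and 18 and 20 reads in the same groups, so the list did not move as a whole. The dendritic sum came mostly from Zbtb46 and Xcr1, and Clec9a had at most 1 read in any library with LPS, against 1 to 8 in those without. Their part in the results was not tested. Replicate 1 of every group held 2936 to 4465 Xist reads and replicate 3 held 0, so replicate number and the sex of the cells cannot be told apart. Ratios within each replicate number are given beside the fits for some of the genes. In bulk RNA, fewer cells of a type and less RNA per cell cannot be told apart.

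Several of the genes are neighbours on the mm10 genome. P2rx7 (chr5:122643911-122691432) and P2rx4 (chr5:122707544-122729738) lie on the plus strand with 16111 bases between them, P2ry2 (chr7:100996568-101012866) and P2ry6 (chr7:100937630-100974649) lie on the minus strand with 21918 bases between them, and P2ry13 (chr3:59207892-59210882) and P2ry14 (chr3:59113855-59153618) both lie inside Med12l on the opposite strand. The sequences just upstream of the chromosome 5 and chromosome 3 pairs are shown because 1 member of the first pair fell with LPS while the other did not pass, and both of the second rose. They are RefSeq promoter windows (GRCm38.p6) that run up to 250 bases before the annotated start, less any bases inside the transcribed region, written 5′ to 3′ on the strand of the gene. Capitals mark matches to TGANTCA, the letters bound by AP-1, a factor of the response to LPS.
P2rx7, chr5:122643677-122643910, plus strand: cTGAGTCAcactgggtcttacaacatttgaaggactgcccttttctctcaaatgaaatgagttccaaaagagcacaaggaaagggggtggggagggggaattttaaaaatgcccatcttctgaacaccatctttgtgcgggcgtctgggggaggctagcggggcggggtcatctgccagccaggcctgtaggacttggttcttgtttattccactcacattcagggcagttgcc
P2rx4, chr5:122707294-122707543, plus strand: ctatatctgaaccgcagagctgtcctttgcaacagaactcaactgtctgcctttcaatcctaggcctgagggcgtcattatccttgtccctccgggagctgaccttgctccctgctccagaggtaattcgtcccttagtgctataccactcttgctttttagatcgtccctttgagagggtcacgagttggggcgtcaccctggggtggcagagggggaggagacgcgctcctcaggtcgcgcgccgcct
P2ry13, chr3:59210883-59211132, minus strand: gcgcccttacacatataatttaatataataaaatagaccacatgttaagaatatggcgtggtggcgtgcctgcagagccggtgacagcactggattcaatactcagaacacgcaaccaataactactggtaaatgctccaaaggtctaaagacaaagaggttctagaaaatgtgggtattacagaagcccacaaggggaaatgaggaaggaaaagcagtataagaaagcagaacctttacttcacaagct
P2ry14, chr3:59153619-59153742, minus strand: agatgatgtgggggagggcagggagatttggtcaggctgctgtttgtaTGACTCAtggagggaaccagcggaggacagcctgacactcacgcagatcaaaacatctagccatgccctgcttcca

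RefSeq windows were at hand for 8 of the 10 genes (14 windows, since several have more than 1 start) and not for P2ry6 or Adora2a. Of 6 motifs searched on both strands, only the AP-1 letters were found. P2rx7 held TGAGTCA at 243 to 249 bases before its RefSeq start and P2ry14 held TGACTCA at 196 to 202 bases before its first start, and a second P2ry14 window, not shown, held TGAATCA. These letters occur in 6.75% of all 32851 windows. The AP-1 letters thus stood before a gene that fell with LPS and before a gene that rose. The other motifs were the cyclic AMP response element TGACGTCA (1.55% of all windows), the STAT letters TTCNNNGAA (7.02%), the STAT6 form with 4 free bases between TTC and GAA (5.85%), the kappa-B motif (7.25%) and the PU.1 letters GAGGAAGT (2.44%). A match or its absence is a description of these windows and shows no binding.

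LPS moved most of the set. Against control, 5 of the 9 tested genes rose (Adora2a, Adora2b, P2ry13, P2ry14 and P2ry2), 2 fell (P2rx7 and Entpd1) and 2 did not pass (P2rx4 and P2ry6), at an adjusted p under 0.05. Of all tested genes 40.4% passed in this comparison, 21.8% higher and 18.6% lower, and the median log2 fold change was 1.24 over the 9 genes and -0.01 over all tested genes. With IL-4 then LPS set against IL-4, the same 5 genes rose, 3 fell (P2rx7, P2ry6 and Entpd1) and P2rx4 did not pass. There 39.3% of all tested genes passed, 20.7% higher and 18.6% lower, and the medians were 0.87 and -0.04. These genes and the other lists below were chosen with earlier results of these data known, so such shares and medians only describe them. In each of these comparisons every gene that passed had the sign of the fit in both replicate numbers, 7 of 7 against control and 8 of 8 against IL-4. The ratios come from the same libraries as the calls, so this agreement is no separate support.

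**Figure D1:**
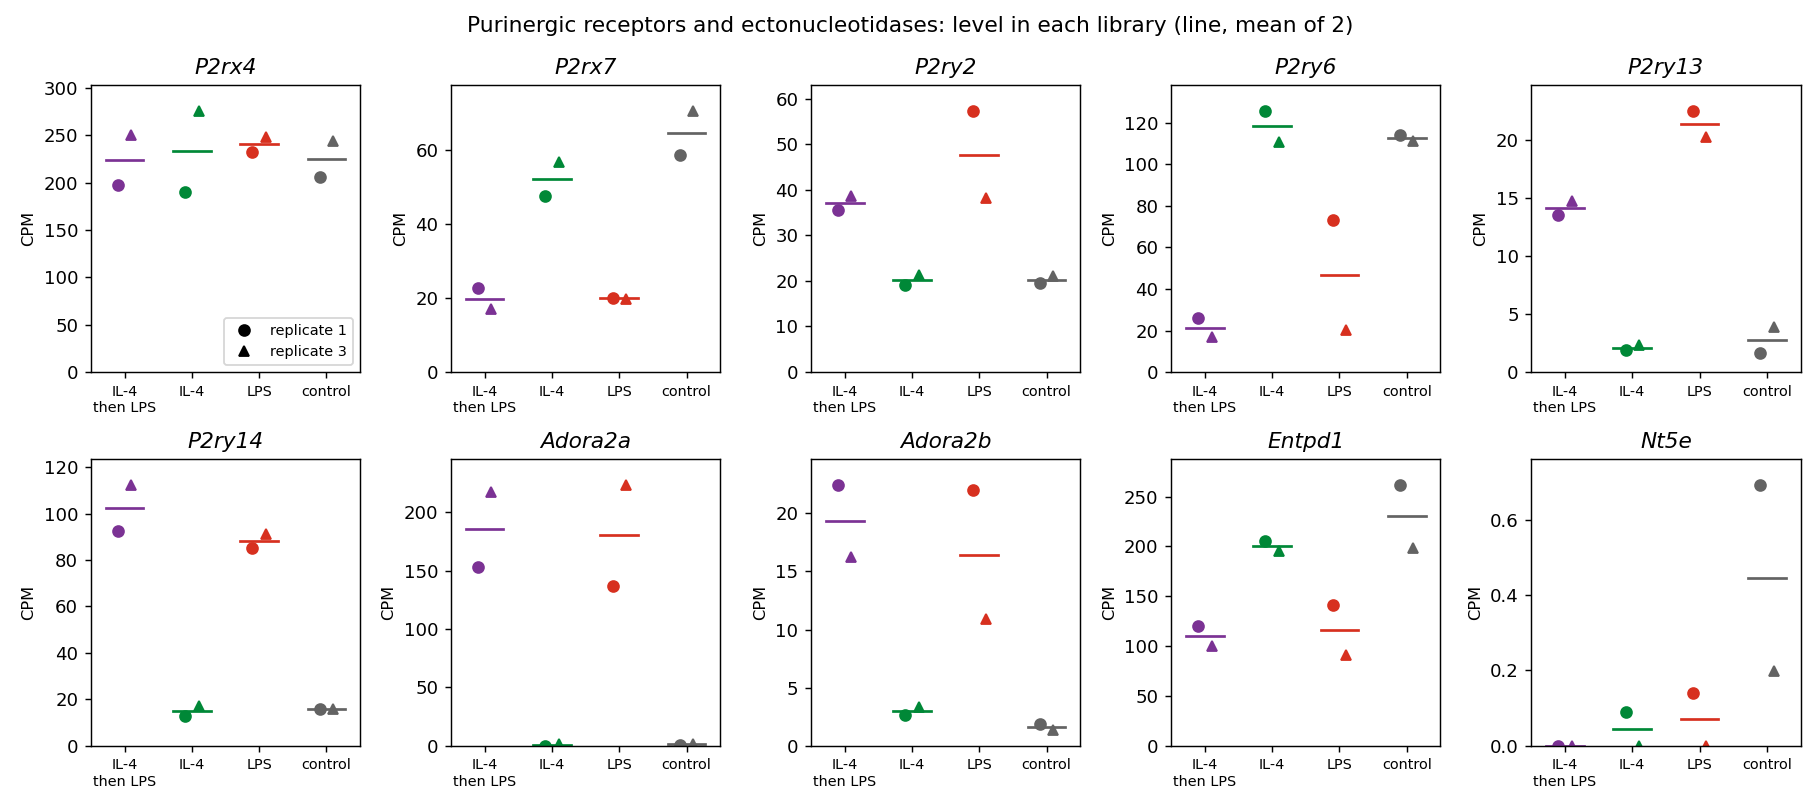
Level of each of the 10 genes in CPM (scaled read counts, linear axis from 0, own scale per gene) in IL-4 then LPS, IL-4, LPS and control libraries; circles are replicate 1, triangles replicate 3 and lines the mean of 2. Adora2a stands at 137 to 224 CPM in the 4 libraries that received LPS and under 1.6 CPM in the other 4, while P2rx4 stays between 191 and 276 CPM in all 8.

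Both adenosine receptors rose, Adora2a by the largest fold of the 9 genes in both LPS comparisons. Adora2a, the adenosine receptor of higher affinity, had 154 and 217 CPM in IL-4 then LPS, 0.179 and 1.27 CPM in IL-4, 137 and 224 CPM in LPS, and 0.865 and 1.58 CPM in control libraries (replicates 1 and 3, in this order here and below). Every library with LPS stood far above every library without it, and the LPS and IL-4 then LPS ranges overlapped. LPS raised it by 7.21 ± 0.54 log2 units against control (SE, n = 2 libraries each; 148-fold, adjusted p = 4.6e-05) and by 7.98 ± 0.57 against IL-4 (252.6-fold, adjusted p = 4.1e-05). The denominators of these folds rest on few reads, 2 and 14 in IL-4 libraries and 10 and 16 in control libraries, so their size is less certain than their direction. Within replicate numbers, the log2 ratios were 9.75 and 7.42 for IL-4 then LPS over IL-4, and 7.31 and 7.14 for LPS over control. Against IL-4 the fitted change was 7.18 without IL-4 replicate 1 and 9.93 without IL-4 replicate 3.

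Adora2b, the receptor that responds at higher adenosine concentrations, had 22.5 and 16.2 CPM in IL-4 then LPS, 2.68 and 3.35 CPM in IL-4, 22.0 and 10.9 CPM in LPS, and 1.90 and 1.39 CPM in control libraries. Both libraries of each LPS-treated group were above both of the matching group without LPS, and the LPS libraries lay further apart than those of IL-4 then LPS. The rise was 3.30 ± 0.42 log2 units with LPS (9.87-fold, adjusted p = 0.00056) and 2.67 ± 0.39 after IL-4 (6.38-fold, adjusted p = 0.0012). Without LPS replicate 1 the first value was 2.71. Summed per kilobase of exon, Adora2a and Adora2b made up 49.4% and 53.2% of the level of the 8 receptor genes in IL-4 then LPS, 1.74% and 2.30% in IL-4, 37.9% and 52.4% in LPS, and 1.51% and 1.34% in control libraries. The shares depend on the annotated exon lengths.

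Among the P2Y receptors, P2ry13 and P2ry14 rose several-fold and P2ry2 rose less. P2ry13, a Gi-coupled receptor for ADP, had 13.6 and 14.8 CPM in IL-4 then LPS, 1.88 and 2.36 CPM in IL-4, 22.5 and 20.3 CPM in LPS, and 1.64 and 3.86 CPM in control libraries. The libraries with LPS were all above those without, and those of IL-4 then LPS lay below both LPS libraries. It rose by 2.97 ± 0.36 log2 units with LPS (7.84-fold, adjusted p = 0.00048) and by 2.74 ± 0.37 after IL-4 (6.67-fold, adjusted p = 0.00087). Within replicate numbers the LPS over control log2 ratios were 3.78 and 2.40, and without control replicate 3 the fitted change was 3.65.

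P2ry14, the receptor for UDP-glucose and other UDP-sugars, had 92.6 and 112.4 CPM in IL-4 then LPS, 12.9 and 17.0 CPM in IL-4, 85.1 and 91.1 CPM in LPS, and 16.0 and 16.0 CPM in control libraries. Libraries of a group lay close together, with a wide gap between those with and without LPS. It rose by 2.46 ± 0.17 log2 units with LPS (5.50-fold, adjusted p = 3.6e-05) and by 2.78 ± 0.18 after IL-4 (6.88-fold, adjusted p = 2.6e-05). P2ry13 and P2ry14 share no exon bases with Med12l, which had 69 reads over all 8 libraries. The strandedness of the counts was not stated, and whether any reads were exchanged between these genes was not tested.

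P2ry2, a Gq-coupled receptor for ATP and UTP, had 35.4 and 38.5 CPM in IL-4 then LPS, 19.2 and 21.3 CPM in IL-4, 57.3 and 38.1 CPM in LPS, and 19.5 and 20.97 CPM in control libraries. The groups with and without LPS did not overlap, and LPS replicate 1 stood apart as the highest. Within replicate numbers the LPS over control log2 ratios were 1.56 and 0.863. The rise was 1.24 ± 0.21 log2 units with LPS (2.36-fold, adjusted p = 0.0023) and 0.87 ± 0.21 after IL-4 (1.83-fold, adjusted p = 0.012). The second call is lost without IL-4 replicate 1 (log2 fold change 0.796) or without IL-4 then LPS replicate 3 (0.808). It is also lost when libraries are scaled by their totals (0.348, adjusted p = 0.195). That scaling moved the median of all genes to -0.56, and relative to it P2ry2 stood at 0.905, against 0.906 in the main fit.

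P2ry6, the UDP receptor next to P2ry2, fell with LPS after IL-4, and its libraries with LPS alone disagreed. It had 26.1 and 16.7 CPM in IL-4 then LPS, 126 and 111 CPM in IL-4, 73.4 and 20.5 CPM in LPS, and 114 and 111 CPM in control libraries. Both libraries of IL-4 then LPS were far below both IL-4 libraries, and both LPS libraries were below both control libraries, but LPS replicate 1 kept well over the level of LPS replicate 3. Against IL-4 it fell by 2.47 ± 0.51 log2 units (adjusted p = 0.0069), a call lost without IL-4 then LPS replicate 3 (adjusted p = 0.054).

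For LPS against control the P2ry6 log2 fold change was -1.26 ± 0.49 and did not pass (adjusted p = 0.072). Within replicate numbers the log2 ratio was -0.64 in replicate 1 and -2.44 in replicate 3. Without LPS replicate 1 the change was -2.46 and passed (adjusted p = 0.00088). With all libraries kept, it passed with no filter on low counts (adjusted p = 8.1e-11), where its SE was 0.19 against 0.49 in the main fit. It also passed with DESeq2 (0.018) and with the replicate number as a block (0.0076). With libraries scaled by their totals (adjusted p = 0.017) or upper quartiles (0.039) it passed too, but these scalings moved the median of all genes to -0.62 and -0.28. Relative to that median P2ry6 stood at -1.24 and -1.25, against -1.25 in the main fit.

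The P2X channels did not move together. P2rx7, which opens at high ATP and leads to potassium efflux and activation of the NLRP3 inflammasome, had 22.6 and 17.0 CPM in IL-4 then LPS, 47.5 and 56.7 CPM in IL-4, 20.0 and 19.8 CPM in LPS, and 58.7 and 70.4 CPM in control libraries. All libraries with LPS were below all without. It fell by 1.70 ± 0.19 log2 units with LPS (adjusted p = 0.00029), to 0.308 of the control level, and by 1.40 ± 0.19 after IL-4 (adjusted p = 0.00082), to 0.380 of the IL-4 level. Within replicate numbers the log2 ratios were -1.07 and -1.74 for IL-4 then LPS over IL-4 and -1.55 and -1.83 for LPS over control.

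P2rx4, an ATP-gated channel found in lysosomes as well as at the cell surface, had 198 and 250.5 CPM in IL-4 then LPS, 191 and 276 CPM in IL-4, 233 and 248 CPM in LPS, and 207 and 244 CPM in control libraries. All 4 groups overlapped, and replicate 3 was above replicate 1 in each. The log2 fold change was 0.09 ± 0.21 with LPS (adjusted p = 0.75) and -0.06 ± 0.21 after IL-4 (adjusted p = 0.85). Under scaling by library totals these became -0.51 (adjusted p = 0.038) and -0.58 (adjusted p = 0.026), but that scaling moved the median of all genes to -0.62 and -0.56, and relative to it P2rx4 stood at 0.11 and -0.02.

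**Figure D2:**
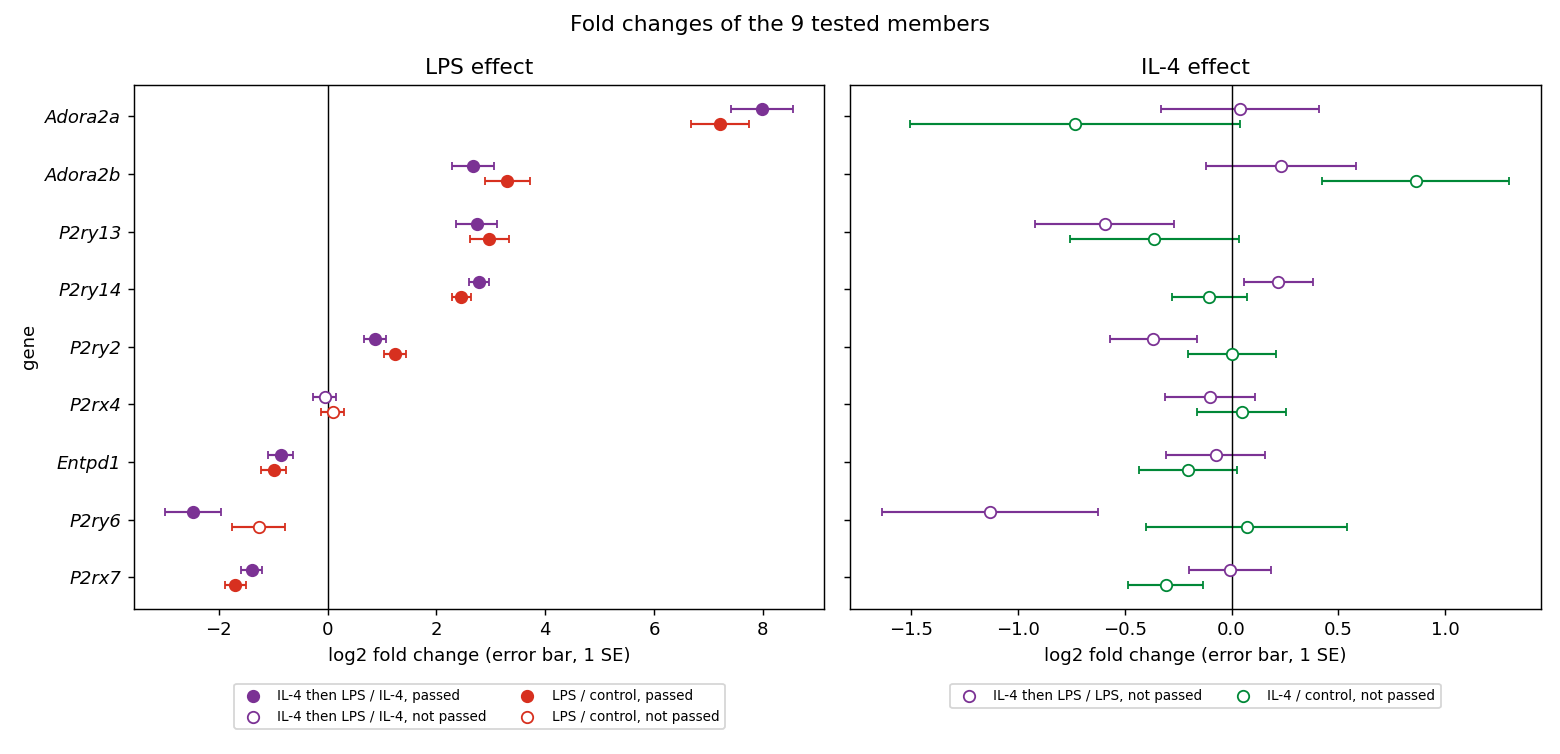
Log2 fold changes of the 9 tested genes (dot) with 1 SE (bar) from edgeR; left, LPS effects (IL-4 then LPS over IL-4, purple, and LPS over control, red); right, IL-4 effects on a finer axis (IL-4 then LPS over LPS, purple, and IL-4 over control, green). Filled dots passed at an adjusted p under 0.05: LPS effects run between -2.47 and 7.98 and all IL-4 effects lie between -1.13 and 0.86 with open dots.

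Of the ectonucleotidases, Entpd1 was abundant and Nt5e had few reads or none. Entpd1 had 120 and 99.8 CPM in IL-4 then LPS, 205 and 196 CPM in IL-4, 141 and 90.8 CPM in LPS, and 262 and 199 CPM in control libraries. The libraries with LPS were all below those without. It fell by 0.99 ± 0.23 log2 units with LPS (adjusted p = 0.011), to 0.503 of the control level, and by 0.86 ± 0.23 after IL-4 (adjusted p = 0.021), to 0.55 of the IL-4 level. The first call is lost without LPS replicate 3 (adjusted p = 0.058) or control replicate 1 (0.051), and the second without IL-4 replicate 1 (0.075), IL-4 replicate 3 (0.060) or IL-4 then LPS replicate 3 (0.122). Tctn3, which lies 132 bases from Entpd1, also fell with LPS (-1.52 ± 0.35, adjusted p = 0.010), and whether any reads were exchanged between them was not tested.

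Nt5e had 0 and 0 reads in IL-4 then LPS, 1 and 0 in IL-4, 1 and 0 in LPS, and 8 and 2 in control libraries. Its ratio of LPS to control was 0.151, with an exact 95% interval from 0.00347 to 1.06, and its ratio of IL-4 to control was 0.0975, from 0.00225 to 0.685. Both intervals cover counting error only, and most of the control reads came from replicate 1. No ratio is given for IL-4 then LPS, since those groups held 3 reads or fewer.

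No gene of the set passed for an effect of IL-4. Against control, 0 of the 9 tested genes passed by edgeR's quasi-likelihood test, 0 had an unadjusted p under 0.05 and 0 passed by DESeq2. Of all tested genes 0.0654% passed in this comparison, 0.0572% higher and 0.00817% lower. Over all 12234 tested genes, 892 had an unadjusted p under 0.05 and DESeq2 called 110, so 0 of 9 does not set these genes apart. The median log2 fold change was -0.10 over the 9 genes and -0.00037 over all genes tested. The largest differences were Adora2b at 0.86 ± 0.44 (adjusted p = 0.74), whose IL-4 libraries were both above the control libraries, and Adora2a at -0.73 ± 0.77 (adjusted p = 0.90), which rests on few reads. P2rx7 was at -0.31 ± 0.18 (adjusted p = 0.78), with both IL-4 libraries below both control libraries, and the other 6 lay between -0.36 and 0.07.

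IL-4 then LPS against LPS gave the same count, 0 of 9 by edgeR, 0 at an unadjusted p under 0.05 and 0 by DESeq2, beside 0.0654% of all tested genes by edgeR, 0.049% higher and 0.0163% lower. Over all 12234 tested genes, 1040 had an unadjusted p under 0.05 and DESeq2 called 119, so here too 0 of 9 does not set the genes apart. The median was -0.07 over the 9 genes and -0.03 over all genes tested. P2ry6 had the largest difference, -1.13 ± 0.51 (adjusted p = 0.60), with log2 ratios of -1.49 in replicate 1 and -0.29 in replicate 3, and the groups overlapped. Without LPS replicate 1 it was at 0.06, so its direction rests on that library. P2ry13 was at -0.59 ± 0.32 (adjusted p = 0.67) and P2ry14 at 0.22 ± 0.16 (adjusted p = 0.77), and for these genes the groups did not overlap. P2ry2 was at -0.37 ± 0.20, and the other 5 lay between -0.10 and 0.23.

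Whether prior IL-4 changed the size of the LPS response was tested as an interaction, and 0 of the 9 genes passed by edgeR, 0 had an unadjusted p under 0.05 and 0 passed by DESeq2. The share of all tested genes that passed was 0.0%, with 322 at an unadjusted p under 0.05 and 5 called by DESeq2. P2ry6 differed by -1.20 ± 0.69 log2 units, Adora2a by 0.77 ± 0.86 and Adora2b by -0.63 ± 0.56, each with an adjusted p of 1. P2ry6 passed after IL-4 and not against control, but the difference between its LPS responses did not pass. The errors leave room for differences of more than 1 log2 unit in genes of the set, these 3 and P2ry13 (-0.23 ± 0.52) among them.

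Levels were ranked between genes per length, as CPM per kilobase of exon. The length held all annotated exons of a gene, and the transcripts present were not determined, so the order depends on the annotation. P2rx4, for example, had more CPM than Adora2a in IL-4 then LPS (means 224.2 and 185.4), over 7025 and 3062 bases. In IL-4 then LPS, Adora2a came first at 60.6 ± 14.7 (SD, n = 2), then P2rx4 at 31.9 ± 5.3 and Entpd1 at 19.7 ± 2.6, none of them overlapping its neighbour. Adora2b, P2ry2, P2ry14, P2ry6 and P2ry13 followed between 10.5 and 5.61, each overlapping the next, and P2rx7 was below them at 3.32 ± 0.66. The IL-4 group began with P2ry6 at 41.0 ± 3.6, Entpd1 at 35.9 ± 1.2 and P2rx4 at 33.2 ± 8.6, of which P2rx4 overlapped both of the others. Then came P2rx7 at 8.72 ± 1.09 and P2ry2 at 5.16 ± 0.38, and the remaining tested genes were under 1.7, with Adora2a the lowest at 0.236 ± 0.252.

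The LPS group had the same first 3 genes as IL-4 then LPS, Adora2a at 58.9 ± 19.9, P2rx4 at 34.2 ± 1.6 and Entpd1 at 20.8 ± 6.3, the last overlapping P2ry6. P2ry6, P2ry2, Adora2b, P2ry13 and P2ry14 followed between 16.3 and 7.97 with overlapping neighbours, and P2rx7 was at 3.33 ± 0.03. In control cells Entpd1 at 41.3 ± 8.0 overlapped P2ry6 at 39.0 ± 0.8, and P2rx4 at 32.1 ± 3.8 came next. P2rx7 was at 10.8 ± 1.4, P2ry2 at 5.15 ± 0.27, and P2ry14, P2ry13, Adora2b and Adora2a lay between 1.45 and 0.400. Nt5e was the lowest of the 10 in every group, at 0.0517 ± 0.0407 in control.

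**Figure D3:**
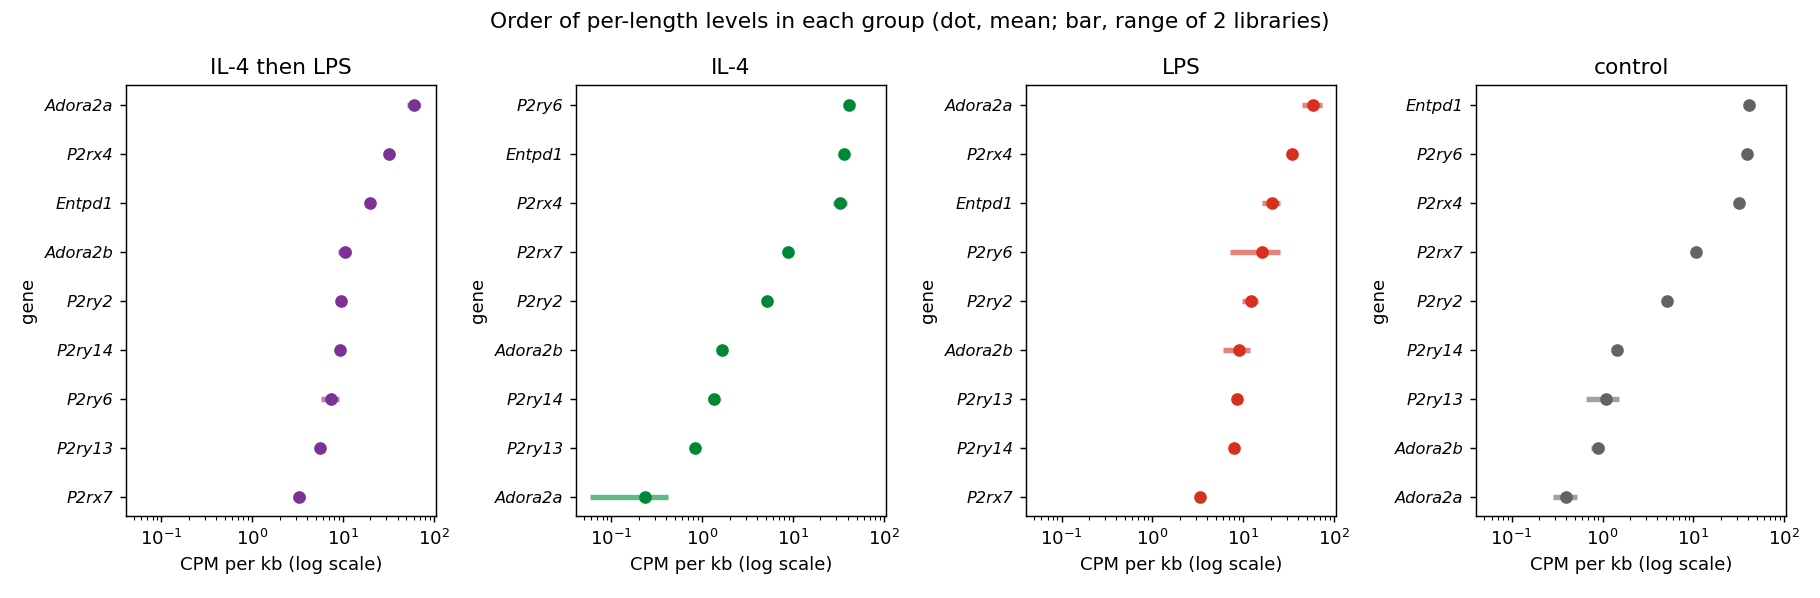
Tested genes ordered by their level per exon length within each group (CPM per kb, log axis; dot, mean; bar, range of 2 libraries), for IL-4 then LPS, IL-4, LPS and control. Adora2a is first at 60.6 and 58.9 in the 2 groups that received LPS and last at 0.236 and 0.400 in the 2 that did not, and P2rx7 is last in the groups with LPS.

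For each gene the tested gene with the most similar profile over the 8 libraries was found by Pearson's r on log2(CPM + 0.1). The libraries fall into those with and without LPS, so a high r mainly reflects that split, and r is a description only. Adora2a was most like Lox, which encodes lysyl oxidase, and P2ry14 most like Ptgs2, the inducible prostaglandin synthase, each at 0.999. P2ry13 was most like the lysosomal gene Cln3 (0.998), P2ry6 most like Mansc1 (0.997) and Adora2b most like Hpcal1 (0.995). Entpd1 was most like Gnb5 (0.993), P2ry2 most like the kinase gene Jak1 (0.992) and P2rx7 most like the cholesterol transporter gene Npc1 (0.992). P2rx4, which did not follow the LPS split, was most like Ergic3 at 0.949. No gene reached an r of 0.95 with P2rx4, whereas 1337 did with P2ry14, 1238 with Adora2a and 138 with P2ry6.

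The wider pathway was read through 3 lists (28 of 51 genes tested), of other receptors, other ectoenzymes, and genes for release, transport and conversion of nucleotides and nucleosides. Together 14 of the 28 passed with LPS against control, beside 40.4% of all tested genes, and 13 after IL-4, beside 39.3%. Of 14 other receptors 6 could be tested, and with LPS against control 0 rose and 1 fell, the median log2 fold change being 0.05. The gene that fell was P2ry1, a Gq-coupled ADP receptor, which had 6.42 and 9.21 CPM in IL-4 then LPS, 16.9 and 17.5 CPM in IL-4, 4.76 and 4.56 CPM in LPS, and 12.5 and 13.5 CPM in control libraries. Libraries with LPS were all below those without. It fell by 1.47 ± 0.24 log2 units with LPS (adjusted p = 0.0020) and by 1.13 ± 0.22 after IL-4 (adjusted p = 0.0056).

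Of 19 other ectoenzymes 10 could be tested, and with LPS 2 rose (Cd38 and Enpp4) and 3 fell (Entpd5, Entpd6 and Enpp1), with a median of -0.48. After IL-4 the same 2 rose and Entpd5, Entpd6 and Entpd7 fell, with a median of -0.08. Enpp4, of the ectonucleotide pyrophosphatase family, had 98.4 and 97.2 CPM in IL-4 then LPS, 2.41 and 4.71 CPM in IL-4, 182 and 218 CPM in LPS, and 6.06 and 7.81 CPM in control libraries. Libraries with LPS were all far above those without. It rose by 4.85 ± 0.28 log2 units with LPS (28.9-fold, adjusted p = 1.6e-05) and by 4.78 ± 0.29 after IL-4 (27.4-fold, adjusted p = 2.2e-05). No member of the main set other than Adora2a had a rise of this size.

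Cd38, which consumes NAD to form cyclic ADP-ribose, had 47 and 89 reads in IL-4 then LPS, 2 and 0 in IL-4, 44 and 133 in LPS, and 1 and 1 in control libraries. The ratio was 104 for IL-4 then LPS over IL-4 (exact 95% counting interval 28.2 to 866) and 133 for LPS over control (36.4 to 1110). Entpd6, a nucleoside diphosphatase of the secretory pathway, had 5.40 and 5.06 CPM in IL-4 then LPS, 9.37 and 10.3 CPM in IL-4, 4.62 and 3.45 CPM in LPS, and 9.17 and 7.02 CPM in control libraries. It fell by 1.004 ± 0.27 log2 units with LPS (adjusted p = 0.020) and by 0.91 ± 0.26 after IL-4 (adjusted p = 0.027). The first call is lost without LPS replicate 3 (adjusted p = 0.112) or control replicate 1 (0.097), and the second without any single library of the groups compared (0.075 to 0.121). Entpd4 had no read while its near-identical copy Entpd4b had some, so counts of either are uncertain.

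Of 18 genes for release, transport and conversion 12 could be tested. With LPS 5 rose (Pnp2, Gja1, Slc28a2, Pnp and Ampd3) and 3 fell (Slc29a2, Slc17a9 and Slc29a3; median -0.07), and after IL-4 the same 5 rose and Slc29a2 and Slc29a3 fell (median 0.09). Slc28a2, a sodium-coupled nucleoside transporter, had 92.9 and 45.7 CPM in IL-4 then LPS, 7.59 and 8.43 CPM in IL-4, 273 and 105 CPM in LPS, and 8.65 and 10.2 CPM in control libraries. It rose by 4.33 ± 0.52 log2 units with LPS (20.1-fold, adjusted p = 0.00046) and by 3.11 ± 0.51 after IL-4 (8.63-fold, adjusted p = 0.0022), with replicate 1 above replicate 3 in both groups with LPS. These values were 3.47 without LPS replicate 1 and 2.51 without IL-4 then LPS replicate 1.

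Pnp2, a purine nucleoside phosphorylase whose reads may be shared with its near copy Pnp, had 36.6 and 31.1 CPM in IL-4 then LPS, 1.52 and 0.997 CPM in IL-4, 40.3 and 43.7 CPM in LPS, and 0.606 and 1.88 CPM in control libraries. It rose by 5.10 ± 0.39 log2 units with LPS and by 4.73 ± 0.39 after IL-4 (adjusted p = 5.0e-05 and 6.8e-05). The first value was 4.41 without control replicate 1 and 6.05 without control replicate 3. Gja1, which encodes connexin 43, a channel through which ATP can leave cells, had 11.5 and 2.08 CPM in IL-4 then LPS, 0.714 and 0.272 CPM in IL-4, 24.9 and 4.97 CPM in LPS, and 0.692 and 0.297 CPM in control libraries. Replicate 1 was above replicate 3 in every group. It rose by 4.85 ± 1.12 log2 units with LPS (adjusted p = 0.011) and by 3.73 ± 1.14 after IL-4 (adjusted p = 0.034). The first call is lost without LPS replicate 1 (adjusted p = 0.053), control replicate 1 (0.052) or control replicate 3 (0.066), and the second without IL-4 replicate 1 (0.091), IL-4 replicate 3 (0.139) or IL-4 then LPS replicate 1, where the change was 2.04 (0.246).

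In the comparisons of IL-4 with control and of IL-4 then LPS with LPS, 0 of the 28 tested genes of these lists passed by edgeR, against 5 and 7 at an unadjusted p under 0.05. Over all 12234 tested genes, 892 and 1040 had an unadjusted p under 0.05. DESeq2 called 1 in each, Entpd4b and Enpp4, beside 110 and 119 of all genes. Enpp4 was at -0.96 ± 0.29 log2 units in IL-4 against control (adjusted p = 0.50) and at -1.03 ± 0.23 in IL-4 then LPS against LPS (adjusted p = 0.26). P2rx5, an ATP-gated channel gene, was at 2.02 ± 0.50 and 1.84 ± 0.56 (adjusted p = 0.31 and 0.42). For the interaction 0 passed by edgeR or DESeq2 and 0 had an unadjusted p under 0.05. Of all tested genes, 322 had an unadjusted p under 0.05 there and DESeq2 called 5.

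**Figure D4:**
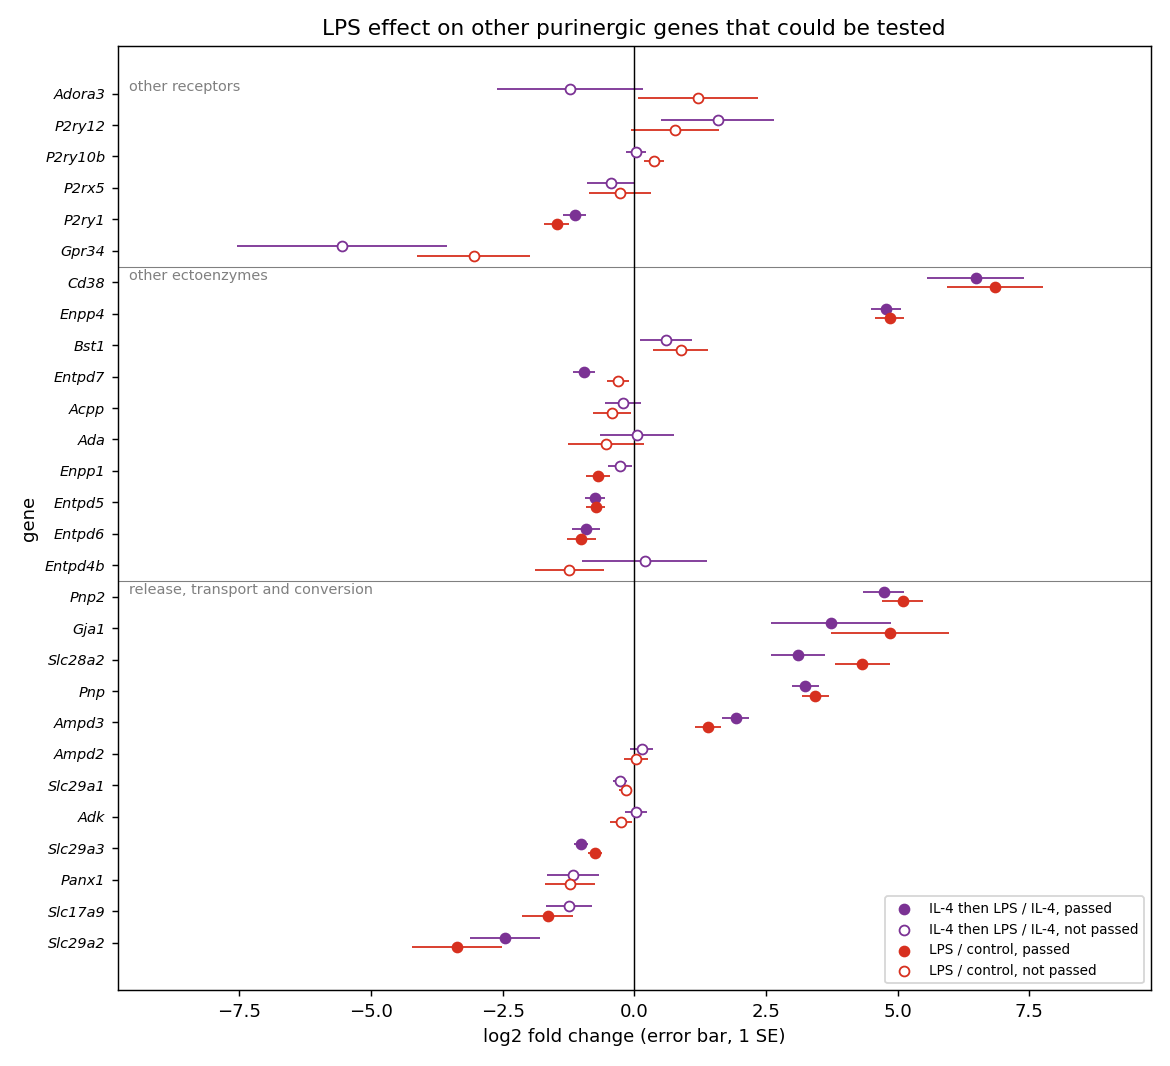
Log2 fold changes with LPS (dot) and 1 SE (bar) of the 28 tested genes of the 3 other lists, for IL-4 then LPS over IL-4 (purple) and LPS over control (red); filled dots passed at an adjusted p under 0.05. Cd38, Pnp2, Enpp4, Gja1, Pnp and Slc28a2 stand at the right in both comparisons, from 3.11 upward, and P2ry1 is the only filled dot among the receptors.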

How the data were processed

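The 8 libraries were analysed as deposited read counts per gene, whole numbers that the authors had not normalized. The submitters' processing notes list HISAT2, StringTie, HTSeq and the mm10 build; versions, strandedness and the treatment of shared reads are not given in the sources used here. The table's 6 further count columns, which the labels do not describe, were not used. All 10 genes had the same start and end in GENCODE M21, whose exon union equalled the deposited gene length.

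Counts were filtered with filterByExpr, which left 12234 genes, scaled by TMM and tested with edgeR 4.0.16 (quasi-likelihood test, all 8 libraries, Benjamini-Hochberg over all tested genes, called at an adjusted p under 0.05; R 4.3.3). SE is the absolute log2 fold change over the square root of F, and so approximate. Alternatives were RLE, upper-quartile or total scaling, no filter, DESeq2 1.42.0, fits on the compared groups alone, a replicate block and leaving out each library.

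Nothing says whether the 2 libraries of a group are separate cultures or animals beyond the sex difference, so p-values measure the spread between these libraries. The genes and lists were chosen with earlier results of these data known. In the other lists, values are given for up to 3 genes each, those with the largest change among the called genes of LPS against control; further genes are named only to complete a count, with P2rx5 chosen after its values were seen. Read intervals are exact (Clopper-Pearson), and with no molecular identifiers they cover counting error only; folds were not taken where both groups held 3 reads or fewer.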

Additional observations from a re-analysis of the deposited data

How the results depend on the processing

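Scaling by library totals shifted the median of all genes to -0.62 (LPS against control) and -0.56 (IL-4 then LPS against IL-4), and the share of calls that were higher was 21.2% and 22.5%, against 53.9% and 52.8% under TMM; upper-quartile scaling gave 36.6% and 36.0%. Under totals, 4 of the 9 genes fell with LPS against control and 14 of the other purinergic genes did (11 for IL-4 then LPS against IL-4), against 2, 7 and 6 in the results above. P2rx4 with LPS then read -0.51, and -0.173 under upper-quartile scaling. In IL-4 against control P2ry2, near 0, read -0.0242 (RLE), -0.0151 (totals), -0.0243 (DESeq2) and -0.00201 (fit on these groups alone). P2rx7 in IL-4 then LPS against LPS read 0.061 (totals), 0.0252 (upper quartile) and 0.0211 (fit on these groups alone). That last kind of fit, which could not be made for the interaction, called 4 other purinergic genes lower with LPS against control and 5 genes of all in IL-4 then LPS against LPS.

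Counts over all genes in the IL-4 comparisons depended on the model. IL-4 against control had 8 calls, 360 with no filter and 110 with DESeq2; IL-4 then LPS against LPS had 8, 397 and 119; the interaction had 0, 53 and 5. With no filter 1 of the 9 genes, P2ry6, was lower in IL-4 then LPS against LPS and 1, again P2ry6, in the interaction; the cause was not tested.

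The replicate numbers give only 2 pairs per comparison and the labels do not tie them to an animal, so the unpaired fit is the main one. Differences between replicates 1 and 3 correlated between groups at 0.327 to 0.5. With the replicate block the calls over all genes were 288 for IL-4 against control, 281 for IL-4 then LPS against LPS and 1 for the interaction. Among the 9 genes it added P2ry6 with LPS against control (-1.40 ± 0.34) and changed no other call; in the other lists it called 17 of 28 genes with LPS against control, 16 with IL-4 then LPS against IL-4, 3 with IL-4 against control and 2 with IL-4 then LPS against LPS, against 14, 13, 0 and 0.

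Leaving out each library gave 1 to 3 of the 9 genes lower with LPS against control and 1 to 3 with IL-4 then LPS against IL-4, 2 to 7 other purinergic genes lower in each, 4 to 9 calls for IL-4 against control and 3116 to 4799 for IL-4 then LPS against IL-4 (lowest without IL-4 replicate 1). The count of 1 of the 9 came without LPS replicate 3 or control replicate 1 in the first comparison and without IL-4 then LPS replicate 3 in the other; the 4 calls came without either control library. Other purinergic genes called lower were 3 without LPS replicate 3 and 2 without control replicate 1 against control, and 2 or 3 without any single library of the groups compared against IL-4. These log2 fold changes, none of them called, crossed 0. LPS against control had P2rx4 (-0.0837 to 0.181). IL-4 against control had P2rx4 (-0.285 to 0.267), P2ry2 (-0.117 to 0.0535), P2ry6 (-0.0448 to 0.116), P2ry13 (-0.905 to 0.341), P2ry14 (-0.359 to 0.0601) and Adora2a (-2.7 to 0.0499). IL-4 then LPS against LPS had P2rx4 (-0.28 to 0.0605), P2rx7 (-0.226 to 0.186), P2ry6 (-1.78 to 0.0649), Adora2a (-0.269 to 0.434), Adora2b (-0.185 to 0.825) and Entpd1 (-0.355 to 0.279). IL-4 then LPS against IL-4 had P2rx4 (-0.298 to 0.255), and the interaction P2rx4 (-0.34 to 0.213), P2ry13 (-0.907 to 0.337) and Entpd1 (-0.153 to 0.481). Counts for the other lists under these settings were added after seeing the data. With 2 libraries a group, the SEs given above set the size of change that could be seen.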
